A study of Mus musculus with 9 samples.

Results

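The type 1 programme of lymphocytes was described here by 10 genes in T15, a Smarcb1-negative murine cell line of peripheral T-cell lymphoma (PTCL). They were taken by name from the 35288 genes listed: the cytokine gene Ifng, the transcription factors Tbx21, Eomes and Stat4, the IL-12 receptor genes Il12rb1 and Il12rb2, the IL-18 receptor genes Il18r1 and Il18rap, and the interferon-gamma receptor genes Ifngr1 and Ifngr2. All 10 were found once in the table, and 9 had enough counts for a test. RNA-seq was available for 9 libraries, 3 in each group. The SAHA cells received suberoylanilide hydroxamic acid (vorinostat), a pan-inhibitor of histone deacetylases, at 1 µM, given 2 times within 72 h. For T15 cells at this dose the paper reports strong apoptosis that left the great majority of cells dead. The share of living cells in the sequenced cultures is not given in the sources used here, and the part of cell death in the SAHA values was not tested. The Smarcb1-RE cells had been transduced with a lentiviral, doxycycline (Dox)-inducible Smarcb1 construct (pInd20), selected with G418 and given Dox at 0.5 µg/µl for 72 h. Smarcb1 is a subunit of the SWI/SNF chromatin remodelling complex, which moves nucleosomes. According to the labels, the cells set against SAHA had vehicle and those set against Smarcb1 a plasmid without it. The labels do not state which of these conditions the 3 control libraries stand for, and the paper calls the sequenced controls untreated T15 cells. Transduction, selection and Dox can therefore not be told apart from Smarcb1 itself when Smarcb1-RE is compared with control. If the controls were plasmid cells, SAHA and control could likewise differ in more than the drug. Between Smarcb1-RE and SAHA, transduction, selection, Dox, Smarcb1 and the drug all differ and cannot be told apart. The study raised several stable clones for re-expression, and the clone behind these libraries is not named. All groups derive from 1 cell line, so the p-values measure the spread between cultures of that line.

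Type 1 immunity is the arm of the response directed at intracellular pathogens and tumour cells, and interferon-gamma is its signature cytokine. In T cells and NK cells, IL-12 binds a receptor made of the Il12rb1 and Il12rb2 products and signals through Jak2 and Tyk2 to Stat4, while IL-18 binds the Il18r1 product together with its accessory chain Il18rap and signals through Myd88 and Irak kinases. T-bet, the product of Tbx21, and its T-box relative Eomes act on the Ifng locus. Secreted interferon-gamma binds a receptor made of the Ifngr1 and Ifngr2 products and signals through the kinases Jak1 and Jak2.

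Library totals ranged from 24564919 to 24941494 estimated counts in control, from 23403494 to 24189992 in SAHA and from 20900477 to 21911177 in Smarcb1-RE. Levels are given as CPM, counts scaled to a common library total, after TMM normalization, and 3 counts, taken as the smallest detectable level, correspond to between 0.123 and 0.133 CPM. Smarcb1 had 2, 5 and 8 counts in control, 7, 13 and 3 with SAHA, and 151, 147 and 142 after re-expression, where it was higher by 4.89 on the log2 scale (SE 0.36, adjusted p = 6.19e-08, edgeR's quasi-likelihood test with Benjamini-Hochberg adjustment). Smarcb1 reached the count filter only through the Smarcb1-RE libraries, so this p-value is a description. Control replicate 1 stood apart from its group, with a chi-square per gene of 13.4 and 15.0 against the other 2 control libraries, whereas all other replicate pairs lay between 2.12 and 4.69. The T cell genes Cd3e, Cd3d, Cd3g, Cd247, Cd8a, Cd8b1, Cd28 and Lck were expressed in all libraries, Cd4 was at 0, and Thy1, Cd2 and Cd5 had at most 6 counts. None of 8 NK cell markers had enough counts for a test, and their summed level stayed between 0.0411 and 0.354 CPM. Of 6 B cell markers, Ms4a1 and Pax5 were tested, and the summed level was 0.936 to 1.14 CPM in control, 1.24 to 1.86 in SAHA and 7.29 to 7.97 in Smarcb1-RE. Of 10 myeloid markers Cd68 alone was tested, Fcgr1 was at 0, and the summed level was 2.11 to 2.67 CPM in control, 5.98 to 7.49 in SAHA and 1.90 to 2.03 in Smarcb1-RE. The part of these B cell and myeloid markers in the results was not tested. In bulk RNA, fewer cells of a type and less RNA per cell cannot be told apart.

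Promoter sequence was available for 9 of the 10 genes in the RefSeq table (GRCm38.p6), not for Il12rb1. It is shown for the cytokine gene and the pair of T-box factors, whose separate responses are described below, as the 250 bases before the RefSeq transcription start. Each is written 5′ to 3′ on the strand of the gene. Capitals mark a match to the STAT motif TTCNNNGAA, which was searched on both strands together with the T-box motif TCACACC. The Ifng stretch is chr10:118440796-118441045 on the plus strand, the Tbx21 stretch chr11:97115332-97115581 on the minus strand and the Eomes stretch chr9:118477939-118478188 on the plus strand.
Ifng: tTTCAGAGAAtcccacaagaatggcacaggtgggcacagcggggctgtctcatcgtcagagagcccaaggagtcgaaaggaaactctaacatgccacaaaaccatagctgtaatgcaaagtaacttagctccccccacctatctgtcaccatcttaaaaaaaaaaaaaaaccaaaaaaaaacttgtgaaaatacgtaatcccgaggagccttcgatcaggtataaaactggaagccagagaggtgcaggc
Tbx21: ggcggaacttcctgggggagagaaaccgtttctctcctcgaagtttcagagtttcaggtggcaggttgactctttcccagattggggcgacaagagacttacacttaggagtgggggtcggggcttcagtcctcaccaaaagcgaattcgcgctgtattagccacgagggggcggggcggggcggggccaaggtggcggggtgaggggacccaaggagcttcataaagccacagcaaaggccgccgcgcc
Eomes: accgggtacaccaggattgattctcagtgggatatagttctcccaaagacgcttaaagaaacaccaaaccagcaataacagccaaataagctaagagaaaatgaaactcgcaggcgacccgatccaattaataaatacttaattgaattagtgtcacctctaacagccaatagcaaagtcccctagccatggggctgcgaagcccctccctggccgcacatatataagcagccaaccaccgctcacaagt
The Ifng stretch held 1 STAT match, which begins 249 bases before the start, and the Tbx21 and Eomes stretches held neither motif. Among the other members, Il12rb2 had 1 STAT match at 123 bases before its start, and 1 of 3 Il18r1 windows, which lies over an Il18r1 exon, had 2. The STAT motif occurs in 7.0% and the T-box motif in 3.3% of 32851 such windows of all genes. A match is a run of letters and not a shown binding site.

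The 10 genes covered a wide range of levels, which were compared between genes as CPM per kilobase of merged exons. In control cells Stat4 stood highest at 129 ± 3.38 CPM per kilobase (SD, n = 3), followed by Tbx21 at 87.5 ± 2.69, Il12rb1 at 21.9 ± 0.838 and Ifng at 18.1 ± 1.54. The interferon-gamma receptor genes lay lower, Ifngr1 at 3.58 ± 0.293 and Ifngr2 at 3.06 ± 0.180, and Il12rb2 lower still at 0.309 ± 0.108. Eomes (0.0778 ± 0.0320), Il18r1 (0.0722 ± 0.0336) and Il18rap (0.0144 ± 0.0128) were near the limit of detection. Every neighbouring pair in this order was separated without overlap of libraries except Eomes and Il18r1. With SAHA, Ifng moved up to 135 ± 6.80 CPM per kilobase and overlapped Stat4 at 140 ± 3.52, above Tbx21 at 120 ± 3.27. In Smarcb1-RE the top of the order was that of control, Stat4 at 148 ± 3.08, Tbx21 at 59.3 ± 2.09, Il12rb1 at 22.3 ± 0.914 and Ifng at 19.4 ± 1.03, and Il18r1 at 0.644 ± 0.0856 lay above Il12rb2 at 0.415 ± 0.0144, whose libraries overlapped those of Eomes at 0.389 ± 0.0455. Among 13620 genes ranked by CPM per kilobase, Ifng was number 3225 in control, 370 in SAHA and 2571 in Smarcb1-RE.

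**Figure D1:**
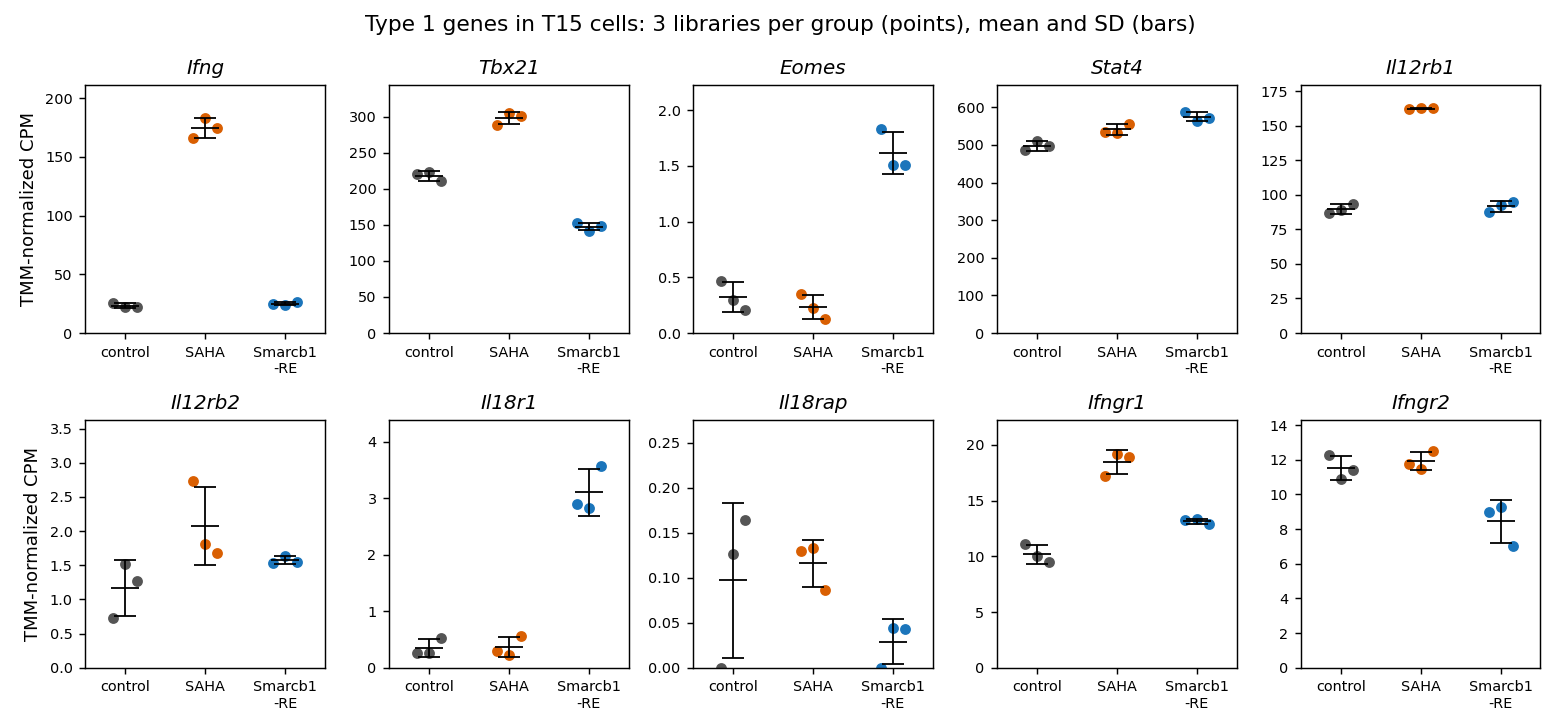
Each panel plots 1 gene of the type 1 list, with TMM-normalized CPM on a linear y axis that starts at 0 and the 3 groups on the x axis; points are libraries and bars the mean and SD of 3. Ifng in SAHA lies between 166 and 183 CPM, above all other libraries, whereas Tbx21 is highest in SAHA and lowest in Smarcb1-RE, and Eomes and Il18r1 are highest in Smarcb1-RE.

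The first comparison asked how these genes differ between SAHA and control cells. SAHA raised Ifng 7.47-fold, the largest change among the 9 tested members, and raised both chains of the IL-12 receptor, Ifngr1, Tbx21 and, by a small amount, Stat4. The IL-18 receptor gene Il18r1, Eomes and Ifngr2 were not called. In all, 6 of the 9 tested members were higher, against 32.6% of all 13697 tested genes, and 0 were lower, against 34.3% (edgeR's quasi-likelihood test, adjusted p under 0.05). The count of lower members was 0 at an unadjusted p under 0.05 and with DESeq2 as well. The median log2 fold change was 0.45 over the tested members and 0.00 over all tested genes.

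The second comparison asked what re-expression of Smarcb1 does. In Smarcb1-RE cells Il18r1 rose 8.77-fold and Eomes 4.95-fold from very low levels, Stat4 and Ifngr1 rose by less, and Tbx21 and Ifngr2 fell. Neither Ifng nor the IL-12 receptor genes were called. This gave 4 higher members, against 39.2% of all tested genes, and 2 lower, against 38.6%, with a median log2 fold change of 0.21 over the tested members and 0.01 over all tested genes. Since Eomes and Il18r1 reached the count filter only through the Smarcb1-RE libraries, where they are high, these counts are a description. With library totals in place of TMM factors the median of all genes in this comparison moved by 0.159 on the log2 scale, 47.3% of genes were higher and 30.2% lower, and 6 members instead of 4 were higher, with Ifng and Il12rb1 added.

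Both comparisons share the 3 control libraries, so their values are given side by side. Stat4 and Ifngr1 were higher in both, Tbx21 was higher with SAHA and lower in Smarcb1-RE, and Ifng, Il12rb1 and Il12rb2 were higher with SAHA and not called in Smarcb1-RE. Eomes and Il18r1 were not called with SAHA and higher in Smarcb1-RE, and Ifngr2 was not called with SAHA and lower in Smarcb1-RE. When Smarcb1-RE was set directly against SAHA, 2 members were higher (Eomes and Il18r1), against 37.7% of all tested genes, and 5 were lower (Ifng, Tbx21, Il12rb1, Ifngr1 and Ifngr2), against 36.8%. The higher members are again those that reached the count filter only through the Smarcb1-RE libraries, so their count is a description, and neither was tested when 10 counts were required in every library. With library totals these background shares were 47.0% and 28.6%.

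**Figure D2:**
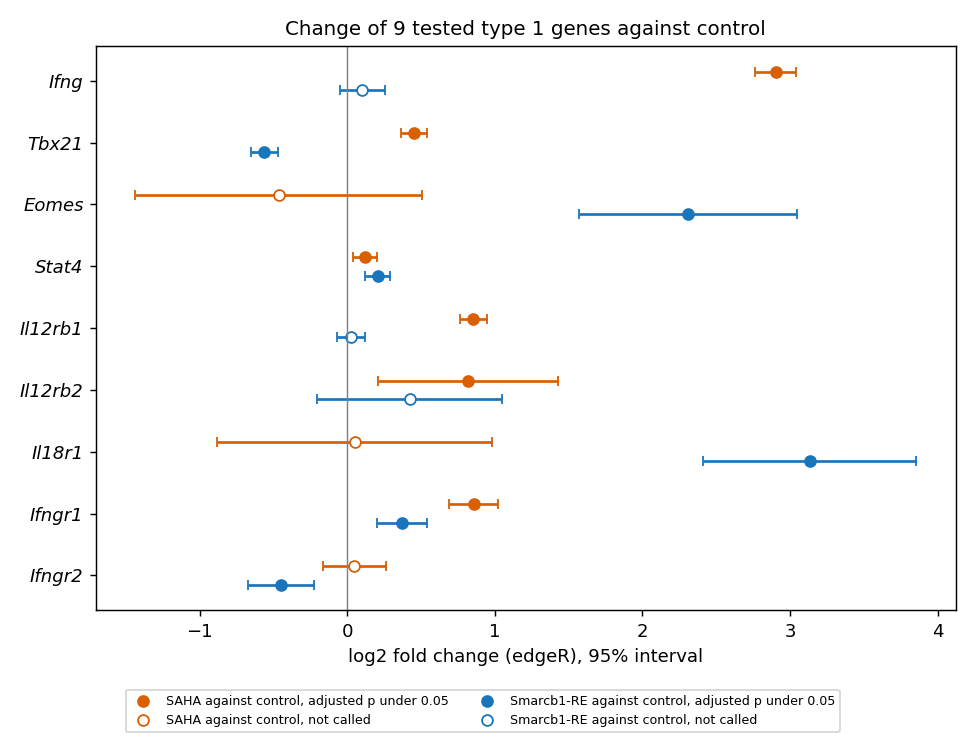
The x axis is the log2 fold change against control with its 95% interval (edgeR), for SAHA in orange and Smarcb1-RE in blue, and each line of the y axis is 1 of the 9 tested members; filled points passed an adjusted p of 0.05. Tbx21 lies on opposite sides of 0 in the 2 comparisons (0.45 and −0.56), and the intervals of Eomes and Il18r1 are the widest.

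Ifng (ENSMUSG00000055170, chr10:118441046-118445892 on the plus strand in GENCODE M21, GRCm38) encodes the cytokine itself. Its control libraries had 604, 527 and 539 counts, its SAHA libraries 3827, 4149 and 4061, and its Smarcb1-RE libraries 586, 538 and 614. All SAHA libraries were far above the others, and the ranges of control and Smarcb1-RE overlapped. The control mean of 23.4 ± 2.0 CPM (SD, n = 3) compared with 175 ± 8.80 CPM after SAHA, a log2 fold change of 2.90 (SE 0.06, adjusted p = 5.37e-11, edgeR). Smarcb1-RE cells stood at 25.1 ± 1.33 CPM, 0.10 from control on the log2 scale (95% interval −0.05 to 0.26, adjusted p = 0.199, edgeR). That second value depended on control replicate 1: without it the log2 fold change was 0.17 with an adjusted p of 0.0344 (edgeR). It also passed the threshold with library totals (0.26, adjusted p = 0.00371, edgeR) and with a filter of at least 10 counts in every library (0.16, adjusted p = 0.048, edgeR), so that a small rise in Smarcb1-RE was called in some settings and not in others. Set against SAHA directly, Smarcb1-RE fell by 2.80 on the log2 scale (SE 0.06, adjusted p = 2.68e-12, edgeR).

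Tbx21 (ENSMUSG00000001444, chr11:97098071-97115331, minus strand) encodes T-bet, the T-box factor that defines type 1 T cells. Counts were 5175, 5274 and 5111 in control, 6667, 6890 and 6970 with SAHA and 3561, 3204 and 3454 in Smarcb1-RE. The 3 groups did not overlap, with SAHA above and Smarcb1-RE below control. Against 218 ± 6.68 CPM in control, the level was 298 ± 8.12 CPM in SAHA, a log2 fold change of 0.45 (SE 0.04, adjusted p = 9.73e-07, edgeR), and 148 ± 5.19 CPM in Smarcb1-RE, where it fell by 0.56 on the log2 scale (SE 0.04, adjusted p = 7.19e-08, edgeR). Between the treatments, Smarcb1-RE fell by 1.01 relative to SAHA (SE 0.04, adjusted p = 4.01e-10, edgeR). Tbx21 thus fell in Smarcb1-RE, where Ifng, whose locus T-bet acts on, was not called and had overlapping libraries.

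Eomes (ENSMUSG00000032446, chr9:118478212-118486132, plus strand) encodes Eomesodermin, the T-box factor typical of memory and exhausted CD8+ T cells and of NK cells. It had 11, 7 and 5 counts in control, 8, 5 and 3 with SAHA and 43, 34 and 35 in Smarcb1-RE. The Smarcb1-RE libraries were above all others, and control and SAHA overlapped close to the limit of detection. The mean was 0.323 ± 0.133 CPM in control and 1.62 ± 0.189 CPM in Smarcb1-RE, a log2 fold change of 2.31 (SE 0.34, adjusted p = 4.07e-05, edgeR). In SAHA the mean was 0.232 ± 0.109 CPM, and the difference of −0.46 from control had a 95% interval of −1.44 to 0.51 (adjusted p = 0.379, edgeR). Smarcb1-RE stood above SAHA by 2.77 (SE 0.36, adjusted p = 1.48e-05, edgeR). Since Eomes reached the count filter only through the Smarcb1-RE libraries, its p-values for that group are a description. Even in Smarcb1-RE Eomes remained far below Tbx21: the ratio of Tbx21 to Eomes per kilobase was 786 to 1707 in the control libraries, 1392 to 3880 in SAHA and 138 to 165 in Smarcb1-RE.

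Stat4 (ENSMUSG00000062939, chr1:51987148-52107189, plus strand) encodes the transcription factor activated by the IL-12 receptor. Counts were 11409, 12095 and 12068 in control, 12353, 12021 and 12923 with SAHA and 13769, 12741 and 13263 in Smarcb1-RE. After normalization the control libraries were the lowest and the Smarcb1-RE libraries the highest, with no overlap among the groups. The means were 498 ± 13.1, 541 ± 13.6 and 574 ± 11.9 CPM, so the changes were small, 0.12 on the log2 scale for SAHA (SE 0.04, adjusted p = 0.0146, edgeR) and 0.21 for Smarcb1-RE (SE 0.04, adjusted p = 0.000293, edgeR). For SAHA the call was lost without SAHA replicate 3 (0.10, adjusted p = 0.0774, edgeR) and with no filter on low counts (0.10, adjusted p = 0.0736, edgeR). Smarcb1-RE and SAHA differed by 0.09 (adjusted p = 0.0579, edgeR), which became a call without control replicate 1 (0.08, adjusted p = 0.0216, edgeR) and in 3 other settings, of which library totals gave the largest value (0.25, adjusted p = 7.07e-05, edgeR).

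The chains of the IL-12 receptor differed greatly in level. Il12rb1 (ENSMUSG00000000791, chr8:70808449-70821424, plus strand), the chain shared with the IL-23 receptor, had 2038, 2112 and 2273 counts in control, 3738, 3683 and 3774 with SAHA and 2049, 2096 and 2195 in Smarcb1-RE. The SAHA libraries were close together and well above the rest, while control and Smarcb1-RE overlapped. From 89.8 ± 3.44 CPM in control it rose to 162 ± 0.445 CPM in SAHA, a log2 fold change of 0.85 (SE 0.04, adjusted p = 7.04e-09, edgeR). With 91.6 ± 3.75 CPM, Smarcb1-RE differed from control by 0.03 (95% interval −0.07 to 0.12, adjusted p = 0.563, edgeR), although library totals gave 0.19 (adjusted p = 0.00292, edgeR). It stood below SAHA by −0.83 (SE 0.04, adjusted p = 2.58e-09, edgeR).

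Il12rb2 (ENSMUSG00000018341, chr6:67291318-67376188, minus strand), the chain through which Stat4 is recruited, was rare, with 17, 36 and 31 counts in control, 63, 41 and 39 with SAHA and 36, 37 and 36 in Smarcb1-RE. Control replicate 1 was the lowest library and SAHA replicate 1 the highest, and in normalized values the groups did not overlap. The mean of 1.17 ± 0.409 CPM in control compared with 2.07 ± 0.571 CPM in SAHA, a log2 fold change of 0.82 (SE 0.28, adjusted p = 0.0209, edgeR). The call was lost without control replicate 1 (0.57, adjusted p = 0.0738, edgeR) and without SAHA replicate 1 (0.57, adjusted p = 0.115, edgeR). Smarcb1-RE, at 1.58 ± 0.0547 CPM, was 0.42 above control (95% interval −0.20 to 1.05, adjusted p = 0.195, edgeR), and −0.40 from SAHA (95% interval −0.99 to 0.20, adjusted p = 0.206, edgeR). Per kilobase, Il12rb1 exceeded Il12rb2 between 52.4-fold and 111-fold in single libraries. Il12rb2 shares 1519 exon bases with Serbp1 on the opposite strand, which had 20445 to 21131 counts in control, 16432 to 17041 in SAHA and 12386 to 13178 in Smarcb1-RE. Whether strand was used in counting is not given in the sources used here, so the Il12rb2 counts are uncertain, and the part of Serbp1 reads in them was not tested.

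The IL-18 receptor genes lie next to each other on chromosome 1, and only Il18r1 reached a testable level. Il18r1 (ENSMUSG00000026070, chr1:40465552-40500854, plus strand), the ligand-binding chain, had 6, 6 and 13 counts in control, 7, 5 and 13 with SAHA and 68, 64 and 83 in Smarcb1-RE. The Smarcb1-RE libraries stood clear of the others, and control and SAHA overlapped. The mean rose from 0.348 ± 0.162 CPM in control to 3.10 ± 0.412 CPM in Smarcb1-RE, a log2 fold change of 3.13 (SE 0.33, adjusted p = 1.95e-06, edgeR). SAHA, at 0.361 ± 0.177 CPM, differed from control by 0.05 (95% interval −0.88 to 0.98, adjusted p = 0.924, edgeR), so a change of nearly 1 log2 unit either way was not detectable at this depth. Against SAHA, Smarcb1-RE was higher by 3.08 (SE 0.33, adjusted p = 2.55e-06, edgeR). Since Il18r1 reached the count filter only through the Smarcb1-RE libraries, its p-values for that group are a description. Il18rap (ENSMUSG00000026068, chr1:40515362-40551705, plus strand), the accessory chain needed for signalling, had 0, 3 and 4 counts in control, 3, 3 and 2 with SAHA and 0, 1 and 1 in Smarcb1-RE. In 5 of the 9 libraries, the 3 Smarcb1-RE libraries among them, it was under the limit of 3 counts, no library exceeded 4, and it was not tested. The rise of Il18r1 was therefore not accompanied by a detectable level of its partner chain.

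In Smarcb1-RE the gene directly upstream of Il18r1 moved the other way. Il1rl1, the receptor for IL-33 and typical of type 2 cells, lies on the same strand, and its last base is 137 bases before the first base of Il18r1. Its counts were 107, 116 and 118 in control, 184, 165 and 185 with SAHA and 2, 2 and 0 in Smarcb1-RE. Il1rl1 was thus detected in control and SAHA, where Il18r1 was lowest, and was at or under the limit of detection in Smarcb1-RE, where Il18r1 was highest. Il1rl1 was higher in SAHA by 0.70 on the log2 scale (SE 0.15, adjusted p = 0.00107, edgeR), and Smarcb1-RE was at least 36.7-fold lower than control and at least 59.5-fold lower than SAHA, computed against the floor of 3 counts per library. In the rest of the cluster, Il1r1, Il1rl2, Slc9a4 and Slc9a2 had at most 3 counts in any library, and Mfsd9, farther away, was not called in either comparison. The 136 bases between Il1rl1 and Il18r1 (chr1:40465416-40465551, plus strand, gene ends from GENCODE M21 and sequence from RefSeq GRCm38.p6, 50.7% G and C) are shown because they are the whole stretch between these genes, which changed in opposite directions in Smarcb1-RE. They held neither motif.
Il1rl1 to Il18r1: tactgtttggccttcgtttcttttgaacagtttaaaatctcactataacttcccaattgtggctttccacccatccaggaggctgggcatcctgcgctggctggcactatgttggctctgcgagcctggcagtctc

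**Figure D3:**
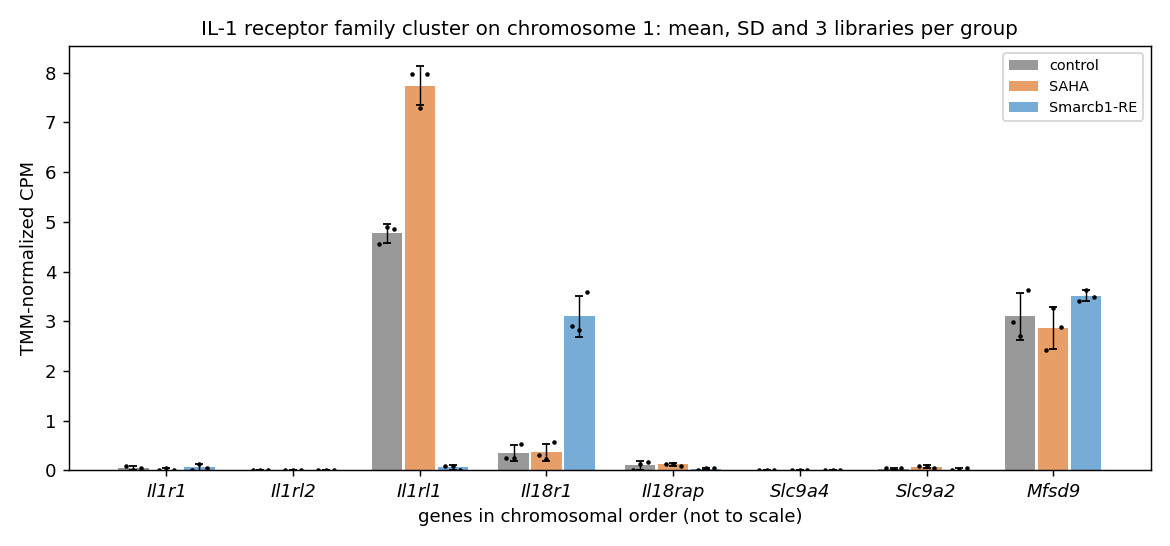
Genes of the IL-1 receptor family cluster and their neighbours are placed in chromosomal order on the x axis, with TMM-normalized CPM on a linear y axis; bars are means of 3 libraries, lines the SD and points the libraries. In Smarcb1-RE Il1rl1 is close to 0 and Il18r1 stands at 3.10 CPM, while Il1rl1 stands at 4.77 CPM in control and 7.74 CPM in SAHA.

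The interferon-gamma receptor genes diverged from each other. Ifngr1 (ENSMUSG00000020009, chr10:19591949-19610229, plus strand), the ligand-binding chain, had 261, 237 and 230 counts in control, 398, 434 and 440 with SAHA and 311, 301 and 299 in Smarcb1-RE. SAHA libraries were the highest and control libraries the lowest, without overlap. The means of 10.2 ± 0.834, 18.5 ± 1.06 and 13.2 ± 0.235 CPM gave log2 fold changes of 0.86 for SAHA (SE 0.08, adjusted p = 7.01e-07, edgeR) and 0.37 for Smarcb1-RE (SE 0.08, adjusted p = 0.000806, edgeR). The direct comparison placed Smarcb1-RE lower than SAHA by −0.49 (SE 0.07, adjusted p = 5.69e-05, edgeR).

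Ifngr2 (ENSMUSG00000022965, chr16:91547072-91565623, plus strand), the signalling chain, had 288, 258 and 277 counts in control, 271, 260 and 290 with SAHA and 211, 210 and 163 in Smarcb1-RE. Control and SAHA overlapped, and all Smarcb1-RE libraries were lower, replicate 3 most of all. At 11.5 ± 0.679 CPM in control and 11.9 ± 0.520 CPM in SAHA the difference was 0.05 (95% interval −0.17 to 0.26, adjusted p = 0.684, edgeR). Smarcb1-RE, at 8.44 ± 1.23 CPM, fell by 0.45 on the log2 scale (SE 0.10, adjusted p = 0.00146, edgeR), and differed from SAHA by −0.50 (SE 0.10, adjusted p = 0.000732, edgeR).

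The signals that feed these receptors were examined next, as 23 genes of which 17 were tested. With SAHA 9 were higher and 4 lower, against 32.6% and 34.3% of all tested genes, with a median log2 fold change of 0.29. In Smarcb1-RE 7 were higher and 7 lower, both near the 39.2% and 38.6% of all tested genes, with a median of 0.05. The IL-12 subunit genes Il12a and Il12b were at 0 in all 9 libraries, and Il18 had at most 5 counts, so neither ligand was expressed at a testable level. Il18bp, a secreted decoy for IL-18, was higher in Smarcb1-RE by 0.50 (SE 0.15, adjusted p = 0.00957, edgeR). Of the kinases on the IL-12 receptor, Jak2 was higher with SAHA by 0.94 (SE 0.04, adjusted p = 5.37e-09, edgeR) and slightly lower in Smarcb1-RE (−0.15, adjusted p = 0.0102, edgeR). Tyk2 was higher in both, by 0.29 and 0.53 (adjusted p = 0.000425 and 1.36e-06, edgeR). Below the IL-18 receptor, the adaptor gene Myd88 fell in both, by 0.27 and 0.90 (adjusted p = 0.000445 and 5.76e-09, edgeR), and Irak4 fell with SAHA by 0.90 (SE 0.07, adjusted p = 3.11e-07, edgeR). In Smarcb1-RE Irak4 was lower as well (−0.24, SE 0.07, adjusted p = 0.00669, edgeR). The kinase genes of this branch were mixed, since Irak2 was higher in both by 0.57 and 0.78 (adjusted p = 6.24e-07 and 1.42e-08, edgeR), and Irak1 fell by 0.52 with SAHA and was higher by 0.38 in Smarcb1-RE (adjusted p = 2.26e-06 and 1.72e-05, edgeR). Gadd45b, a stress-response gene that acts in p38 signalling, was higher with SAHA by 0.94 and lower in Smarcb1-RE by −0.40 (adjusted p = 2e-08 and 4.24e-05, edgeR).

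Of 13 genes for partners of T-bet and regulators of Ifng transcription, all were tested. With SAHA 7 were higher and 2 lower, against 32.6% and 34.3% of all tested genes, and in Smarcb1-RE 8 were higher and 5 lower, against 39.2% and 38.6%, so that the lower share there was near that of all genes. Hlx, among the 8, reached the count filter only through the Smarcb1-RE libraries, where it is high, so that count is a description. The median log2 fold changes were 0.44 and 0.19. Runx3, which binds the Ifng locus together with T-bet, was higher in both by 0.50 and 0.51 (adjusted p = 3.16e-06 and 1.53e-06, edgeR). Its relative Runx1 rose in Smarcb1-RE by 2.46 (SE 0.16, adjusted p = 2.31e-08, edgeR) and with SAHA by 0.58 (SE 0.18, adjusted p = 0.014, edgeR). Zeb2, a repressor that cooperates with T-bet in effector CD8+ T cells, was at 14.2 CPM in control, 28.1 CPM with SAHA and 5.02 CPM in Smarcb1-RE (adjusted p = 1.24e-07 and 6.55e-09, edgeR), so it went the way of Tbx21 in each comparison. Hopx was higher in both, by 1.67 and 1.76 (adjusted p = 9e-09 and 1.49e-09, edgeR). The 2 genes of this list that were lower with SAHA were Nfatc2 and Cbfb. Both were lower in Smarcb1-RE as well, Nfatc2 with libraries that overlapped those of control.

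Type 1 effector genes numbered 18, with 11 tested. SAHA raised 10 of them, and the remaining one, Nkg7, was at 0.06 on the log2 scale (adjusted p = 0.285, edgeR), where 32.6% of all tested genes were higher. Among the 10, Ccl4 and Lta reached the count filter only through the SAHA libraries, where they are high, so this count is a description. Smarcb1-RE had 6 higher and 4 lower, against 39.2% and 38.6% of all tested genes, the lower share again near that of all genes. The median log2 fold change of the list was 1.218 with SAHA and 0.29 in Smarcb1-RE. Il2 was at 0 throughout, and Gzmb and Fasl had at most 1 count. The chemokine gene Ccl5 was higher in both by 1.28 and 1.38 (adjusted p = 6.9e-09 and 8.35e-10, edgeR). Ccl3 was higher with SAHA by 1.91 and lower in Smarcb1-RE by −0.47 (adjusted p = 8.66e-09 and 0.00254, edgeR). Prf1, which encodes perforin, fell in Smarcb1-RE from 19.7 to 2.70 CPM, a log2 fold change of −2.87 (SE 0.10, adjusted p = 1.12e-10, edgeR). With SAHA it was higher by 0.41 (SE 0.08, adjusted p = 0.000473, edgeR).

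Among 20 regulators and cytokines that oppose the type 1 programme, 17 were tested. SAHA gave 5 higher and 5 lower, against 32.6% and 34.3% of all tested genes, and Smarcb1-RE 6 higher and 7 lower, against 39.2% and 38.6%, so all 4 shares were near those of all genes. Among the 6, Il5 and Il10 reached the count filter only through the Smarcb1-RE libraries, where they are high, so that count is a description. The median log2 fold changes were 0.17 and −0.29. Gata3, the lineage factor of type 2 cells, was at 2.81 CPM in control and rose to 16.8 CPM in Smarcb1-RE, by 2.57 on the log2 scale (SE 0.11, adjusted p = 4.65e-10, edgeR), while SAHA gave 0.17 (adjusted p = 0.281, edgeR). Gata3 thus rose where Tbx21 fell, but the type 2 genes of this list were mixed in Smarcb1-RE. Il1rl1, Maf, Il13 and Il4ra fell there, Il5 rose and Il4 was not called. Tcf7, which encodes the memory and progenitor factor TCF-1, fell in Smarcb1-RE from 282 to 47.2 CPM (−2.58, SE 0.05, adjusted p = 8.9e-13, edgeR). With SAHA it was slightly lower (−0.11, adjusted p = 0.0473, edgeR), with overlapping libraries. Socs3, a feedback inhibitor of cytokine receptors, rose with SAHA by 1.79 (SE 0.07, adjusted p = 2.32e-09, edgeR).

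Genes known to respond to interferon-gamma numbered 30, with 26 tested. With SAHA 17 were higher and 5 lower, against 32.6% and 34.3% of all tested genes. H2-Aa, among the 17, reached the count filter only through the SAHA libraries, where it is high, so that count is a description. In Smarcb1-RE 10 were higher, near the 39.2% of all tested genes, and 13 were lower, against 38.6%. Their median log2 fold change was 0.46 with SAHA and −0.16 in Smarcb1-RE, beside 0.00 and 0.01 over all tested genes. Jak1, a kinase on the interferon-gamma receptor, was not called in either (−0.02 and 0.09, adjusted p = 0.692 and 0.0591, edgeR). The class II gene H2-Ab1 rose with SAHA from 0.363 to 13.7 CPM and in Smarcb1-RE to 3.34 CPM (log2 fold changes 5.22 and 3.18, adjusted p = 2.45e-09 and 1.36e-07, edgeR), although Ciita, the class II transactivator gene, had at most 1 count in any library. H2-Aa, another class II gene of the list, was at 0.196 CPM in control, 2.03 with SAHA and 0.175 in Smarcb1-RE. Its difference between Smarcb1-RE and control was not called (−0.17, adjusted p = 0.809, edgeR). Irf8 went in opposite directions, higher by 2.56 with SAHA and lower by −2.73 in Smarcb1-RE (adjusted p = 1.27e-08 and 2.45e-07, edgeR). Nlrc5, the class I transactivator gene, rose by 1.54 in Smarcb1-RE (SE 0.05, adjusted p = 5.46e-11, edgeR) and by 0.56 with SAHA (SE 0.05, adjusted p = 7.73e-07, edgeR). Within this list the proteasome gene Psmb10 fell with SAHA by 1.73 (SE 0.07, adjusted p = 2.67e-09, edgeR). It was also lower in Smarcb1-RE (−1.02, SE 0.07, adjusted p = 3.49e-08, edgeR).

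**Figure D4:**
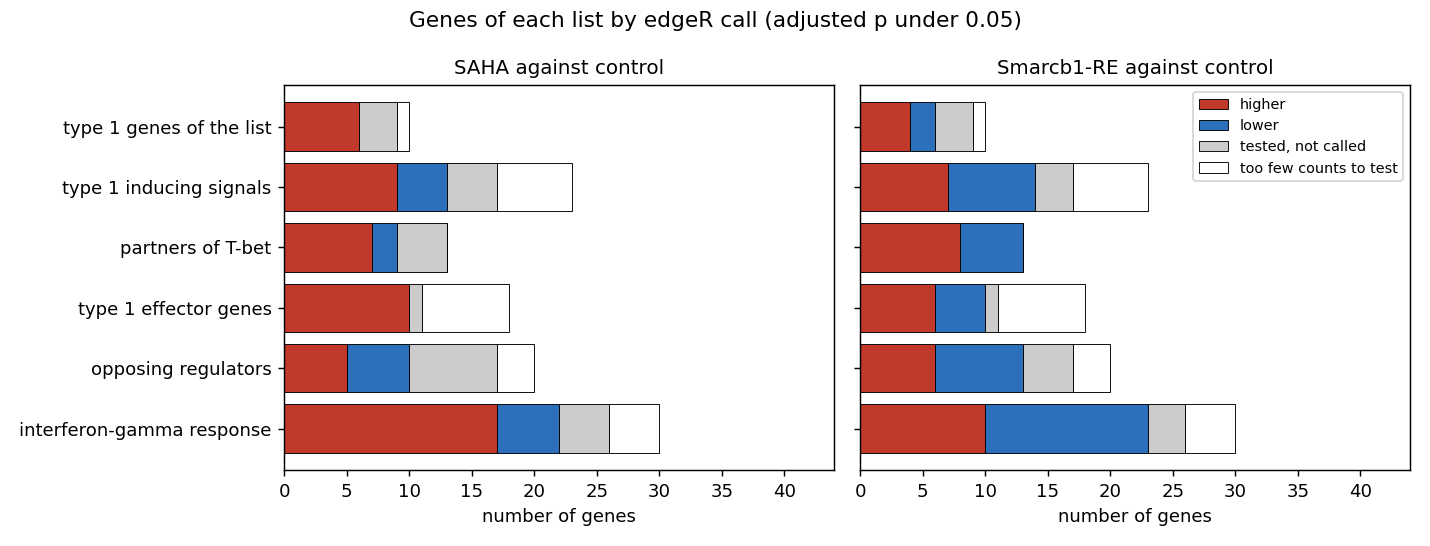
Horizontal bars count the genes of each list on the x axis by their edgeR call against control, with SAHA on the left and Smarcb1-RE on the right; red is higher, blue lower, grey tested but not called and white too few counts to test. With SAHA the type 1 list has 6 higher genes of 9 tested and the effector list 10 of 11, against 32.6% of all tested genes. Ccl4 and Lta, among these 10, reached the count filter only through the SAHA libraries. In Smarcb1-RE the interferon-gamma response list has 10 higher and 13 lower genes of 26 tested, against 39.2% and 38.6% of all tested genes.

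Finally, Tbx21 was set beside its 3 nearest listed protein-coding neighbours on each side. Tbkbp1, the nearest at 20840 bases, and Npepps were higher with SAHA by 0.15 and 0.41 and fell in Smarcb1-RE by 0.39 and 0.35 (adjusted p from 1.17e-06 to 0.00379, edgeR). Kpnb1 fell in both by 0.40 and 0.58 (adjusted p = 3.39e-06 and 6e-08, edgeR), and Osbpl7 was not called in either. With SAHA 3 of the 6 neighbours of Tbx21 were higher (Lrrc46, Tbkbp1 and Npepps) and 1 was lower, against 32.6% and 34.3% of all tested genes, and in Smarcb1-RE 5 were lower and Osbpl7 was not called, against 38.6% lower. Lrrc46 reached the count filter only through the SAHA libraries, where it is high, so the count of higher neighbours is a description. Beside Eomes, Golga4 fell with SAHA by 0.40 and rose in Smarcb1-RE by 0.40 (adjusted p = 0.000118 and 6.58e-05, edgeR), and Itga9 had at most 1 count. Around Ifng the nearest listed genes had at most 2 counts.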

How the data were processed

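RNA-seq of 3 control, 3 SAHA and 3 Smarcb1-RE libraries of T15 cells was analysed. The authors deposited 1 table of estimated counts, with a row for each Ensembl gene and a column for each library and without normalization, in which 52.4% of the values above 0 were not whole. The submitters' processing notes name Salmon 0.14.1, DESeq2 1.22.2, FastQC 0.11.8, MultiQC 1.7 and the build GRCm38, without role or order, and the annotation release and use of strand are not given in the sources used here. Libraries were directional, and reads were single-end. Identifiers were matched to GENCODE M21 (99.3% of identifiers and 99.9% of counts). Samples were grouped by the labels, and replicate numbers come from the titles.

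Counts were rounded and analysed with edgeR 4.0.16 in R 4.3.3 (TMM, filterByExpr with a minimum count of 10, 1 quasi-likelihood fit to the 3 groups, Benjamini-Hochberg adjustment over 13697 genes, adjusted p under 0.05). SE was obtained from the size of the log2 fold change over the root of F, and intervals are 95% intervals. The common biological coefficient of variation was 5.24%. Intervals and detection limits cover counting and replicate error of these libraries only. The calculations were tested on simulated counts. Besides the members and Smarcb1, genes were named by a rule: direct partners of members, the 2 called genes per list, comparison and direction with the largest absolute log2 fold change at an average log2 CPM of at least 1 (a selection of these is printed), and up to 3 neighbours on each side within 300 kb. The 3 genes nearest to Ifng and Tbx21 in both log2 fold changes are given in the closing section. Cd4, Thy1, Cd2, Cd5, Ciita, Il2, Gzmb, Fasl, Ccl4, Lta, H2-Aa, Hlx, Il4, Il5, Maf and Il4ra were named after their values were seen. The members and all lists were chosen with earlier results of these data known. Alternatives were DESeq2 1.42.0, RLE factors, library totals, no filter, 10 or more counts required in each library, fits to 2 groups at a time, a replicate block, stricter thresholds and leaving out each library. Values of 2 listed genes are not reported here. Promoters and the sequence between genes were taken from RefSeq (GRCm38.p6).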

Additional observations from a re-analysis of the deposited data

How the results depend on the processing

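Of 424 combinations of a tested member, a comparison and an alternative, 408 kept direction and side of the threshold, 4 lost the call, 8 gained one and 4 changed sign. The sign changes were in differences that were not called as reported, of which Il12rb1 gained a call with library totals: Il18r1 for SAHA against control was −0.13 without control replicate 1, −0.13 without control replicate 2 and −0.41 without SAHA replicate 3 (range over the left-out libraries −0.41 to 0.50), and Il12rb1 for Smarcb1-RE against control was −0.00288 without control replicate 1 (range −0.00288 to 0.0489). When an absolute log2 fold change of 1 or more was also required, the higher members numbered 1 for SAHA (Ifng) and 2 for Smarcb1-RE against control (Eomes and Il18r1), the lower members 0 for Smarcb1-RE against control and 2 for Smarcb1-RE against SAHA. Eomes and Il18r1 reached the count filter only through the Smarcb1-RE libraries. The share of all tested genes at this limit is not given, so these counts are a description. With at least 10 counts in every library, which removed Eomes and Il18r1, the higher members for Smarcb1-RE against SAHA numbered 1 (Stat4). Leaving out each library gave 5 to 6 higher and 0 lower members for SAHA, 4 to 5 higher and 2 lower for Smarcb1-RE, and 2 to 3 higher and 5 lower for Smarcb1-RE against SAHA. Same-numbered libraries did not deviate together (mean correlation 0.0018, from −0.0586 to 0.0382), and with the replicate number as a block the counts stayed at 6, 0, 4, 2, 2 and 5 in the same order. With 3 to 13 counts per library, Eomes and Il18r1 could not show moderate changes between SAHA and control, and separate fits gave them no value there.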

Other observations

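In the plane of both log2 fold changes against control, the 3 genes nearest to Ifng among 11318 candidates whose average log2 CPM reached 1 were Bcam (Euclidean distance 0.17, log2 fold changes 3.07 with SAHA and 0.13 in Smarcb1-RE), Pfn2 (distance 0.46, 2.53 and −0.17) and Vat1 (distance 0.50, 2.79 and 0.59). Nearest to Tbx21 were Aamp (distance 0.0049), Agpat1 (0.012) and Ppp1r13l (0.015), with log2 fold changes of 0.45 to 0.46 with SAHA and −0.58 to −0.56 in Smarcb1-RE. Each rests on 9 libraries and a common set of controls.

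Several cytokine genes that are not members also changed, and they were singled out after their values were seen. Il10, which encodes an immunosuppressive cytokine, had 2, 1 and 5 counts in control, 2, 0 and 2 with SAHA and 85, 89 and 111 in Smarcb1-RE, where it was higher (adjusted p = 1.1e-07, edgeR). It reached the count filter only through the Smarcb1-RE libraries, so this p-value is a description. Il15, a survival factor of memory CD8+ T cells and NK cells, had 5, 6 and 6 counts in control, 21, 25 and 26 with SAHA and 57, 58 and 62 in Smarcb1-RE, and was higher in both (adjusted p = 1.71e-05 and 5.15e-08, edgeR). Il13, a type 2 cytokine gene, had 8125, 7525 and 7645 counts in control and fell with SAHA by 0.25 and in Smarcb1-RE by 1.00 on the log2 scale (adjusted p = 0.00221 and 8.71e-09, edgeR).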
